A study of Mus musculus with 7 samples.

Results

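The genes described here make cholesterol and move sterols through and out of the cell. They were 31 genes chosen by name, and a probe counted as a member when the platform annotation gave it exactly 1 of those symbols. Of the 31 genes, 28 were measured, through 32 probes, among 16468 named genes and 22218 features in all. Acat2, Soat1 and Soat2 had no matching symbol. The 28 were 7 genes of the mevalonate arm (Hmgcs1, Mvk, Pmvk, Mvd, Idi1, Fdps and Ggps1), 11 of the sterol arm (Fdft1, Sqle, Lss, Cyp51, Tm7sf2, Msmo1, Nsdhl, Hsd17b7, Ebp, Sc5d and Dhcr7), 3 of sterol sensing (Srebf2, Scap and Insig1), 5 of uptake and intracellular transport (Stard4, Npc1, Npc2, Npc1l1 and Scarb1) and 2 of efflux (Abca1 and Abcg1).

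The liver both makes cholesterol and clears it from the blood. The mevalonate arm builds isoprenoid units from acetyl-CoA and joins them into farnesyl diphosphate, and the sterol arm turns these into squalene, closes the rings and trims lanosterol to cholesterol. When the membranes of the endoplasmic reticulum are poor in sterol, the sensor Scap carries the transcription factor SREBP2, the product of Srebf2, to the Golgi for activation, and most genes of both arms are its textbook targets. When sterol is plentiful, Insig1 holds Scap back, while oxysterol-driven LXR receptors raise the efflux pumps Abca1 and Abcg1.

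Liver RNA of 7 littermate mice was measured on 2-colour arrays, each animal against 1 pool from 4 wild-type mice of both sexes. The labels name Cy5 for the animal and Cy3 for the pool, and also state that dyes were swapped. The wild-type group was 1 female (replicate 3) and 3 males (replicates 2, 3 and 4), and the group with a transgene of Zfp90, a zinc finger protein, was 1 female (replicate 1) and 2 males (replicates 1 and 2). The comparison asks which liver transcripts differ with the transgene. The promoter that drives the transgene, the number of lines, and the strain, age and diet of the mice are not given in the sources used here. All levels below are log2 ratios of an animal to the pool, and all differences are differences of such ratios.

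Zfp90 itself, the check of the labels, read -0.15, -0.29 and -0.11 in wild-type males 2, 3 and 4 and 0.34, 0.58 and 0.45 in the transgenic female and males 1 and 2. The value of 0.37 in the sample labelled wild-type female was inside the transgenic range, so it goes against its label for this gene. The transgenic female, at 0.34, read slightly lower, so Zfp90 does not tell the genotypes of the females apart. With 1 female of each genotype, a sex difference in Zfp90 and a wrong label of either female cannot be told apart. The array labelled wild-type female is named by its label throughout, and results are also given without it. Correlations over all probes were under -0.3 for 3 pairs of arrays, the lowest being -0.50 between wild-type male 4 and the transgenic female. The Y-linked Kdm5d read -3.22 and -2.54 on the female arrays and 0.14 to 0.66 on the male arrays, which set the direction of each ratio as animal over pool. If all ratios ran the other way, every difference given here would have the opposite sign at the same p, and counts of higher and lower members would change places. The 9 hepatocyte markers had medians between -0.12 and 0.06 in the animals, but a ratio to a liver pool cannot show how abundant a marker is.

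Promoters are shown first for 4 of the 5 members with the highest Pearson correlation to the squalene epoxidase gene Sqle over the animals (Srebf2, Hmgcs1, Msmo1 and Dhcr7), so that their letters can be compared. Fdft1, the remaining gene of these 5, had no entry among the promoters used here, and the relation of Srebf2 to Sqle rested on few animals, as its values below show. Each stretch runs 5' to 3' from 250 bases before the RefSeq transcription start to 50 bases after it, in build GRCm38.p6. Capitals mark exact matches, on either strand, to the NF-Y box CCAAT, to the GC box GGGCGG bound by Sp1, and to 1 form of the SREBP site, TCACNCCAC. The Srebf2 stretch is chr15:82147019-82147318 on the plus strand, Hmgcs1 is chr13:119690101-119690400 on the plus strand, Msmo1 is chr8:64733529-64733828 on the minus strand, and Dhcr7 is chr7:143829964-143830263 on the plus strand. Dhcr7 had 3 listed starts, and the one with the most matches is printed.
Srebf2: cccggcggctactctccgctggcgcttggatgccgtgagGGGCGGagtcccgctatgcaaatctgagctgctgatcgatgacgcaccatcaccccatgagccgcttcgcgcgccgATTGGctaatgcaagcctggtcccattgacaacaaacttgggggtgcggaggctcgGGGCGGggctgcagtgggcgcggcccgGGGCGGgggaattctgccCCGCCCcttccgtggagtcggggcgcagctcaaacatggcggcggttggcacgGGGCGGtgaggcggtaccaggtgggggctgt
Hmgcs1: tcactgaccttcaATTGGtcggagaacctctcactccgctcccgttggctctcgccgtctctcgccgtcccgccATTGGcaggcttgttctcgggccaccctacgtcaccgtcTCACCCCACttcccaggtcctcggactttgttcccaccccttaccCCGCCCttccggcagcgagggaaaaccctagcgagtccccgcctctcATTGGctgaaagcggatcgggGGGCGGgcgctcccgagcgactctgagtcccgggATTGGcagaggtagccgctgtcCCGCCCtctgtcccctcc
Msmo1: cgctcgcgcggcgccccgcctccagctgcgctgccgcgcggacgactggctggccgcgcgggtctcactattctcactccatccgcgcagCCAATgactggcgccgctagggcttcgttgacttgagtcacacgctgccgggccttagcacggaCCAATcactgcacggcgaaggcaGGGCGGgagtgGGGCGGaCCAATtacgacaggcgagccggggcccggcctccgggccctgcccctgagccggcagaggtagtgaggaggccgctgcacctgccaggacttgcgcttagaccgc
Dhcr7: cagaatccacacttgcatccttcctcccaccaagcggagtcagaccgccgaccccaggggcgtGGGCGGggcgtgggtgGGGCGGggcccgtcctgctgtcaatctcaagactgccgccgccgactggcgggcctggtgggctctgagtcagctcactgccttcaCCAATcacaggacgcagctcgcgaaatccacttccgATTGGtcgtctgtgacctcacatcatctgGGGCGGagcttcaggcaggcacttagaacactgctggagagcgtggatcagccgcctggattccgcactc

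The Hmgcs1 stretch held the only SREBP-site match among the members, TCACCCCAC, whose first base lay at -137 from the start, with 4 NF-Y boxes and 3 GC boxes. Msmo1 held 3 NF-Y boxes and 2 GC boxes, Dhcr7 held 2 and 3, and Srebf2 held 1 and 5. Entries existed for 23 of the 31 genes, with 27 promoters. An NF-Y box was in 20 of these 27 (74.1%), against 37.4% of all 32851 promoters of this length, and a GC box was in 22 (81.5%), against 35.7%. The SREBP-site letters were in 1 of 27 (3.70%), against 1.24%. The matches describe letters in these windows only and name no bound factor.

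No sterol gene passed the test between genotypes. With limma, in a model with genotype and sex and Benjamini-Hochberg adjustment over all features, 0 of 28 members and 0 of 22218 features (0%) were called at an adjusted p under 0.05. Zfp90 itself was not called (0.48 ± 0.15, limma adjusted p = 0.678), so a missing call does not show that a gene was unchanged. At an unadjusted p under 0.05 there were 7 of 28 members, 5 higher and 2 lower in the transgenic mice, beside 6.91% of all features (1536). The 5 higher were the synthesis genes Ebp, Sc5d, Dhcr7, Lss and Fdps, and the 2 lower were the HDL receptor Scarb1 and the sterol carrier Stard4. The members' adjusted p-values ran from 0.718 to 0.998. Members had larger differences than other features (median size 0.17 against 0.09), but also larger standard errors (0.17 against 0.12). No member separated the genotypes: 0 lay above every wild-type animal, where 3.17% of features did, and 0 lay below, where 2.84% did.

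Direction was evenly split over the 28 genes: 14 differences were above 0 (50%, against 48.2% of all features), with a median of 0.01, and after quantile normalization 13 were above 0 with a median of -0.02. By arm, 4 of 7 mevalonate genes (median 0.11) and 6 of 11 sterol-arm genes (median 0.06) had differences above 0, and quantile normalization turned the sterol-arm median to -0.01, with 5 of 11 above 0. Single animals moved the sterol arm further: 10 of 11 were above 0 without transgenic male 2 (median 0.30), 9 of 11 without wild-type male 2 (median 0.14), and 5 of 11 without wild-type male 3 (median -0.03). Uptake and transport stood at 0 of 5 (median -0.29). Leaving out either female, or using the males alone, made that 1 of 5, with a median of -0.06. These 3 settings give the same estimates, because the sex term absorbs a lone female. RNA from the whole liver cannot tell fewer cells of a type from less RNA per cell, and this holds for every value here.

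**Figure D1:**
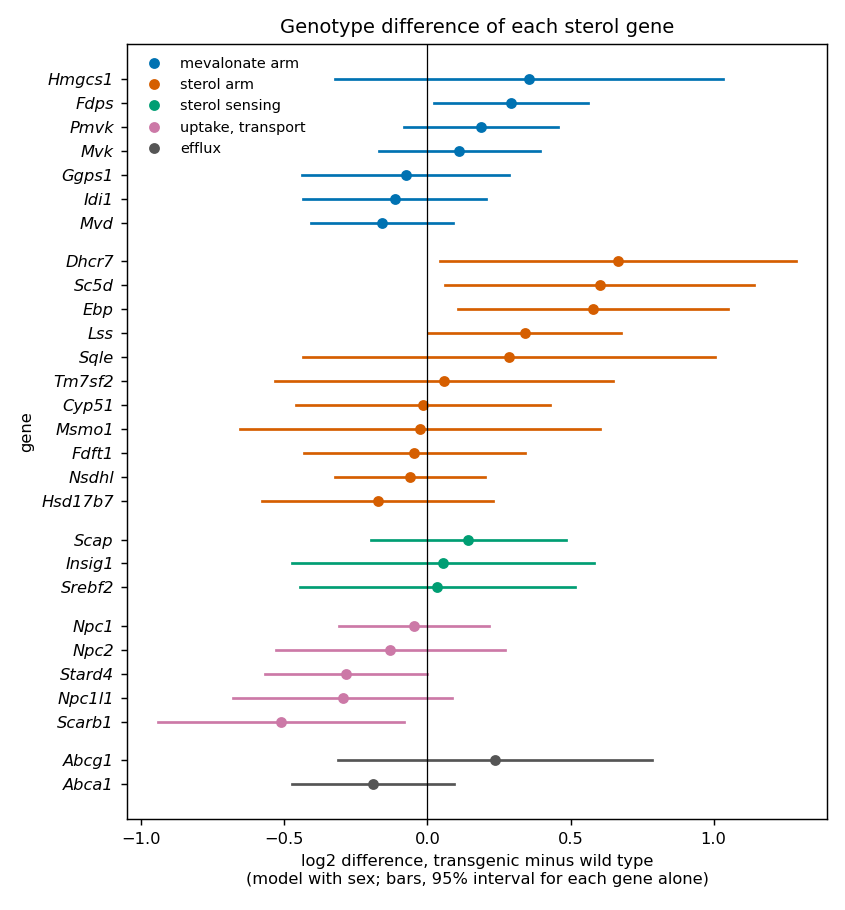
Log2 difference of transgenic minus wild-type animals (x axis) for each of the 28 measured genes (y axis), grouped by role. Points are estimates of the limma model with sex and bars are 95% intervals for each gene taken alone. The bars of Ebp, Sc5d, Dhcr7, Lss and Fdps lie above 0 and those of Scarb1 and Stard4 below 0, but 0 genes passed after adjustment over all features.

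In the mevalonate arm, Hmgcs1, which makes HMG-CoA, read 0.07 under the label wild-type female, 0.49, -0.52 and 0.28 in wild-type males 2, 3 and 4, 1.14 in the transgenic female, and 0.00 and 0.28 in transgenic males 1 and 2. The transgenic female held the highest value and wild-type male 3 the lowest, and the groups overlapped. Its difference was 0.35 ± 0.29 (SE; limma adjusted p = 0.850), and in the males alone it was 0.05 ± 0.30 (adjusted p = 0.999).

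Fdps, which joins isoprenoid units into farnesyl diphosphate, read -0.09, 0.20, -0.13 and -0.08 in the wild-type animals in the same order, against 0.38, 0.25 and 0.18 in the transgenic female and males. Wild-type male 2 overlapped the transgenic range. Its difference was 0.29 ± 0.12, a 1.22-fold higher mean (adjusted p = 0.720). The mean hides a disagreement between its probes, which correlated at -0.39 over the animals. The probe with the smaller p read -0.14, 0.63, -0.42 and 0.18 in wild type against 0.38, 0.73 and 0.53, with a difference of 0.51. The other probe read -0.05, -0.23, 0.16 and -0.34 against 0.37, -0.23 and -0.18. The paired probes of Fdft1, Ggps1 and Idi1 correlated at 0.94, 0.96 and 0.91.

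Pmvk, the second kinase of the pathway, read 0.23, 0.02, -0.15 and -0.09 in wild type and 0.49, 0.27 and -0.10 in the transgenic animals. The transgenic female was highest, and transgenic male 2 lay among the wild-type males. Mvd, the mevalonate diphosphate decarboxylase, read 0.10, 0.20, -0.09 and 0.02 against 0.09, -0.13 and -0.23, so only the transgenic males lay below the lowest wild-type animal. Neither was called: the differences were 0.19 ± 0.12 for Pmvk (adjusted p = 0.788) and -0.16 ± 0.11 for Mvd (adjusted p = 0.80). Mvk, Idi1 and Ggps1, the last of which branches off to geranylgeranyl diphosphate, had differences between -0.11 and 0.11 and adjusted p-values from 0.911 to 0.973.

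Among the sterol-arm genes, the largest difference was that of Dhcr7, the reductase of the last step to cholesterol. It read -0.25 under the label wild-type female, 0.65, -0.52 and 0.48 in the wild-type males, and 0.59, 0.78 and 0.81 in the transgenic female and males. The transgenic animals lay close together and high, while the wild-type animals spread over the full range, with wild-type male 2 inside the transgenic values. The difference was 0.66 ± 0.27, a 1.59-fold higher mean (adjusted p = 0.721). It was 0.59 ± 0.33 in the males alone (adjusted p = 0.886) and 0.43 without wild-type male 3.

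Sc5d, the sterol desaturase that acts just before Dhcr7, had the same shape. Its values were -0.55, 0.53, -0.19 and 0.31 in wild type against 0.72, 0.50 and 0.57. Wild-type male 2 was again the one animal to reach the transgenic range, and the array labelled wild-type female was lowest. The difference of 0.60 ± 0.23, or 1.52-fold (adjusted p = 0.720), dropped to 0.32 ± 0.21 in the males alone (adjusted p = 0.926).

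Ebp, the sterol isomerase, read -0.25, 0.13, 0.14 and -0.21 in wild type against 0.81, 0.71 and 0.09. The transgenic female and male 1 lay above every wild-type animal, and transgenic male 2 did not. Its difference was 0.58 ± 0.20, or 1.49-fold, with the smallest p of the 28 genes (adjusted p = 0.718), and it became 0.38 ± 0.21 in the males alone (adjusted p = 0.883).

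Lss, which closes the sterol rings, read -0.16, 0.32, -0.19 and 0.04 in wild type and 0.25, 0.53 and 0.21 in the transgenic animals. Wild-type male 2 lay inside the transgenic range, and the difference was 0.34 ± 0.14, or 1.27-fold (adjusted p = 0.722). Hsd17b7, a reductase of sterol demethylation, had the lowest difference of the arm. It read -0.08, 0.30, -0.32 and 0.37 against -0.20, -0.17 and 0.01, with every transgenic value inside the wild-type range and a difference of -0.17 ± 0.17 (adjusted p = 0.896). The other genes of the arm apart from Sqle (Fdft1, Cyp51, Tm7sf2, Msmo1 and Nsdhl) had differences between -0.06 and 0.06, while Ebp, Sc5d and Dhcr7, which act last, had the 3 largest differences of the arm.

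The sterol sensors differed little. Scap read -0.28, 0.17, 0.03 and 0.11 in wild type and 0.20, 0.32 and -0.12 in the transgenic animals, and Srebf2 read 0.32, 0.11, -0.61 and 0.20 against 0.16, -0.12 and 0.15. Both sets of values overlapped. Their differences were 0.14 ± 0.15 and 0.03 ± 0.21 (adjusted p = 0.897 and 0.995), and that of Srebf2 turned to -0.15 without wild-type male 3. Insig1, the retention protein and itself an SREBP target, read -0.18, 0.25, -0.31 and 0.07 against 0.47, -0.47 and 0.09, so the transgenic animals held both the highest and the lowest value. Its difference of 0.05 ± 0.23 (adjusted p = 0.992) became -0.19 in the males alone.

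**Figure D2:**
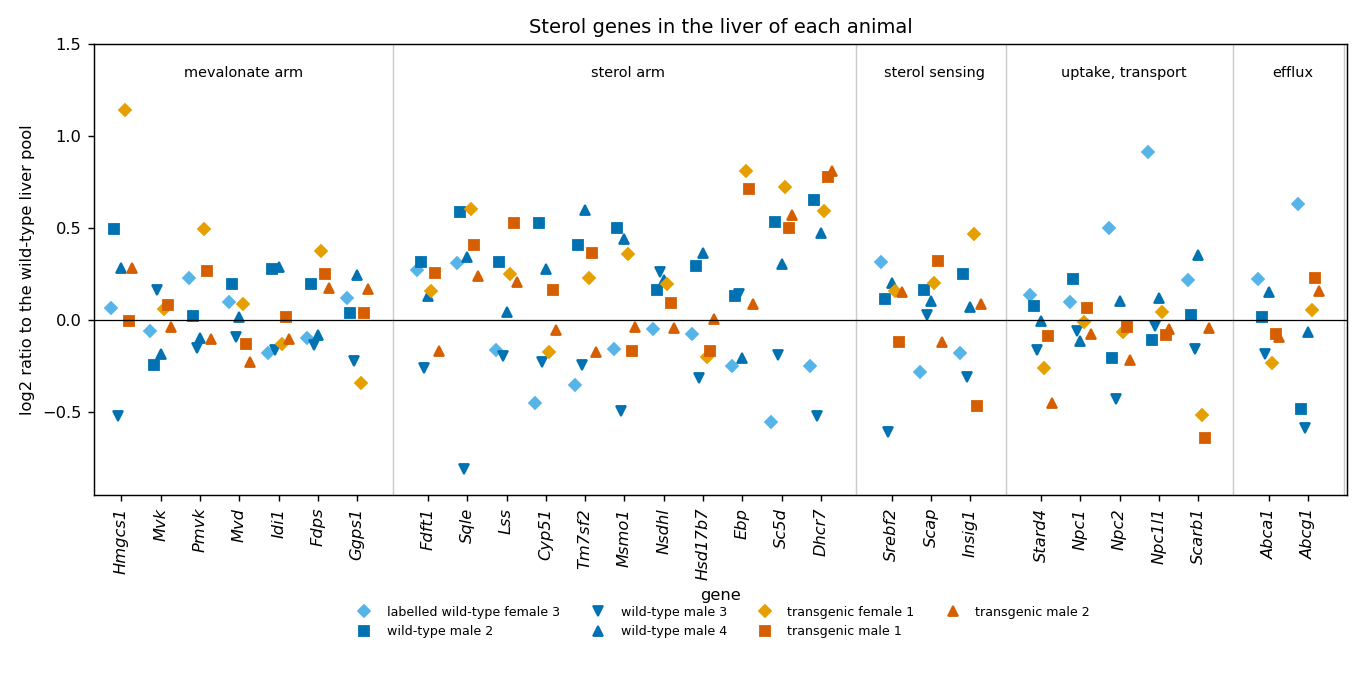
Log2 ratio to the wild-type liver pool (y axis) of the 28 measured genes (x axis), with 1 point for each animal, coloured by genotype and sex and grouped by role. Transgenic values overlap wild-type values for every gene, wild-type male 3 is often the lowest point of the synthesis arms, and the array labelled wild-type female is the highest for Npc1l1, Npc2 and Abcg1.

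In uptake and transport, Scarb1, the receptor that takes cholesterol ester from HDL into the hepatocyte, had the lowest difference of all 28 genes. It read 0.22, 0.03, -0.15 and 0.35 in wild type and -0.52, -0.64 and -0.04 in the transgenic animals. The transgenic female and male 1 lay below every wild-type animal, and transgenic male 2 lay above wild-type male 3. The difference was -0.51 ± 0.18, or 1.42-fold lower (adjusted p = 0.718), and in the males alone it was -0.42 ± 0.22 (adjusted p = 0.863).

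Stard4, a soluble carrier of sterol between membranes, read 0.14, 0.08, -0.16 and 0.00 in wild type and -0.26, -0.09 and -0.45 in the transgenic animals. Transgenic male 1 lay above wild-type male 3, so the groups overlapped, and the difference was -0.29 ± 0.12 (adjusted p = 0.721). It is a textbook SREBP2 target. Its difference had the opposite sign to those of Dhcr7, Sc5d and Lss, and the same sign as those of 8 of the 18 synthesis genes.

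Npc1l1, a sterol importer best known from the gut surface, read 0.91 under the label wild-type female, then -0.11, -0.03 and 0.12 in the wild-type males, against 0.05, -0.08 and -0.05. One array thus set it apart: the difference of -0.29 ± 0.16 (adjusted p = 0.760) was -0.06 ± 0.11 in the males alone (adjusted p = 0.988). Npc1 and Npc2, which export cholesterol from lysosomes, differed by -0.05 ± 0.11 and -0.13 ± 0.17 (adjusted p = 0.980 and 0.934). Npc1 had the highest difference of the 5 genes, with 0.10, 0.22, -0.06 and -0.11 in wild type against -0.01, 0.07 and -0.08. It turned to 0.02 without wild-type male 2, and that of Npc2 to 0.05 in the males alone.

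For efflux, Abca1, which loads cholesterol onto lipid-poor apolipoprotein, read 0.22, 0.02, -0.18 and 0.15 in wild type and -0.23, -0.08 and -0.09 in the transgenic animals. The transgenic female was lowest and the males lay inside the wild-type range, with a difference of -0.19 ± 0.12 (adjusted p = 0.792) that became -0.08 ± 0.13 in the males alone (adjusted p = 0.985). Abcg1, which loads HDL, read 0.63 under the label wild-type female, -0.48, -0.59 and -0.06 in the wild-type males, and 0.06, 0.23 and 0.16 in the transgenic female and males. Among males the genotypes did not overlap, and the array labelled wild-type female lay above all. The difference was 0.24 ± 0.23 over both sexes (adjusted p = 0.896) and 0.57 ± 0.17 in the males alone (unadjusted p = 0.0141, adjusted p = 0.516). In that fit of males, Abcg1 was the only member at an unadjusted p under 0.05, beside 6.96% of features, and 0 of 28 members were called, beside 0.0315% of features.

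Abcg1, which macrophages express strongly, followed the macrophage and Kupffer cell markers. The 11 measured of 12 such markers had a median of 0.82 under the label wild-type female, -0.68, -0.67 and -0.13 in wild-type males 2, 3 and 4, 0.43 in the transgenic female, and 0.33 and 0.19 in the transgenic males. In a set of correlations computed after these values were seen, Abcg1 correlated with that median at r = 0.97 over the 7 animals (exact permutation p = 0.00159, two-sided, 0.0444 after adjustment over 28 members; Spearman's rho = 0.86, exact permutation p = 0.0238, adjusted 0.667). Without wild-type males 2 and 3, the animals farthest from the centre of the marker values, r was 0.89. The same correlation was not computed for all named genes, so how many others reach such an r is unknown. The relation therefore cannot be read as particular to Abcg1. Npc2 came next (r = 0.76, exact permutation p = 0.0421, adjusted 0.589; rho = 0.61, p = 0.167, adjusted 0.80; r = 0.59 without those males). The markers did not all share this order. Marco, Clec4f and Cd5l were lower in each wild-type male than in every other animal, with Cd5l at -1.22, -1.37 and -0.13 against 1.21 under the label wild-type female and 0.54, 0.88 and 0.54 in the transgenic animals. By contrast, Cd68 was highest in wild-type male 3 (0.23), C1qb was highest in wild-type male 4 (0.26), and Adgre1 in wild-type male 4 (0.17) lay above the transgenic males (0.00 and 0.05). In the correlations with the marker median, the mevalonate gene Pmvk and then Npc1l1 ranked after Npc2, at r = 0.67 and 0.64. At the other end, Nsdhl had r = -0.67 (exact permutation, adjusted p = 0.639 for each of these genes). The part of macrophage RNA in the values of Abcg1, Npc2, Pmvk, Npc1l1 or any other member was not tested.

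**Figure D3:**
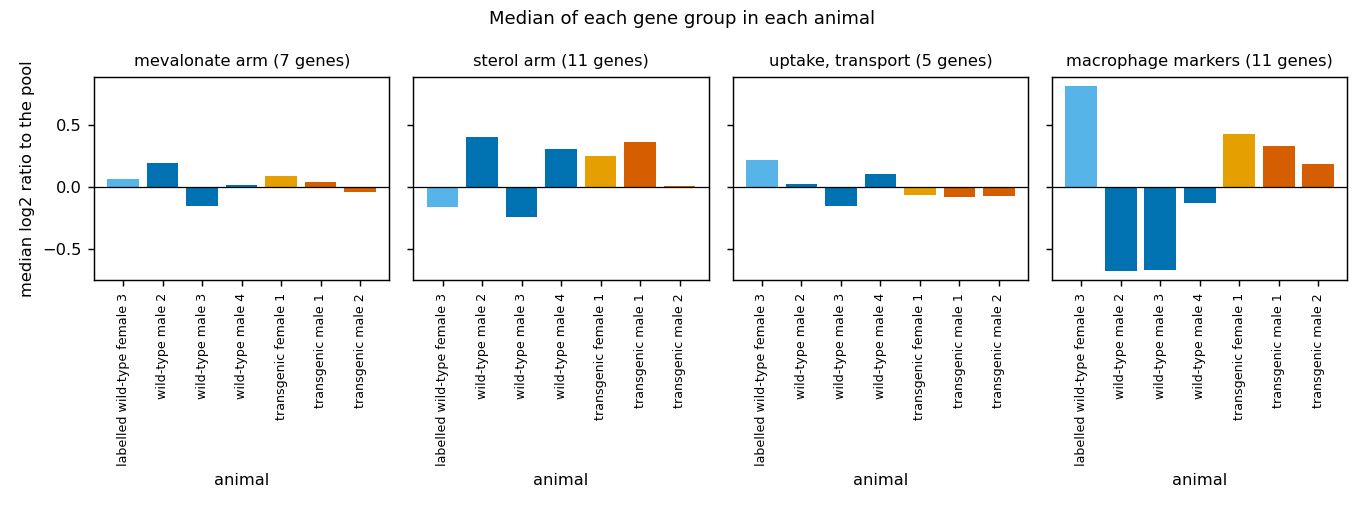
Median log2 ratio to the pool (y axis, bars from 0) of 3 groups of sterol genes and of the macrophage markers in each animal (x axis). The sterol-arm median runs from -0.24 in wild-type male 3 to 0.41 in wild-type male 2, while the macrophage marker median runs from -0.68 in wild-type male 2 to 0.82 under the label wild-type female.

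Sterol genes varied between animals more than the median named gene did. Over the 7 animals the median SD was 0.28 for the 28 members, against 0.17 for all named genes, and within the 3 wild-type males the median range was 0.51 against 0.28. Named genes were not filtered for expression in liver, as no intensities were used, so these values do not compare members with liver-expressed genes alone. The sterol arm had the largest median SD (0.37) and the mevalonate arm the smallest (0.20). In some animals most deviations shared a sign. In wild-type male 2, 24 of 28 members and all 11 sterol-arm genes were above 0, beside 10999 of 22218 features. In wild-type male 3, 24 of 28 were below 0, beside 9860 of 22218 features. That animal held the lowest value for 12 of 28 members (42.9%), against 14.2% of all features. Wild-type male 4 had 21 members and 10 of 11 sterol-arm genes above 0, beside 10727 features. The array labelled wild-type female had 14 members and 2 of 11 sterol-arm genes above 0, beside 11298 features. The transgenic female had 19 members above 0, beside 11962 features, and transgenic males 1 and 2 had 17 and 12, beside 10234 and 10565 features. Of the 11 sterol-arm genes, 9, 9 and 6 were above 0 in these 3 transgenic animals. Sterol-arm medians were -0.16 under the label wild-type female, 0.41, -0.24 and 0.31 in the wild-type males, 0.25 in the transgenic female, and 0.37 and 0.01 in the transgenic males, so both the highest and the lowest median belonged to wild-type males. If the wild-type males were part of the pool, a high value in 1 of them would lower the ratios of the others.

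Over pairs of genes, the correlation across the 7 animals had a median of 0.35 for the 18 genes of both synthesis arms (153 pairs), 0.50 within the sterol arm (55 pairs) and 0.03 within the mevalonate arm (21 pairs), against 0.00 for all pairs of named genes. It was also above 0 outside synthesis, at 0.41 for uptake and transport (10 pairs), 0.43 for the single efflux pair and 0.07 for sterol sensing (3 pairs). These pairs share the same 7 arrays and are not independent, and the named genes were not filtered for expression in liver. Leaving out each animal in turn, a check chosen after the values were seen, kept the sterol-arm median between 0.43 and 0.56 and that of both arms between 0.26 and 0.41. Pairs above 0.8 made up 6.54% of the synthesis pairs and 4.47% of all named pairs. Msmo1 sat nearest the centre of the synthesis genes, with a median correlation of 0.59 to the others, followed by Sqle and Sc5d at 0.54 each, and Mvk stood opposite them at -0.47.

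Sqle, which makes the first oxygenated sterol precursor, served as the anchor. It read 0.31 under the label wild-type female, 0.59, -0.81 and 0.34 in the wild-type males, 0.60 in the transgenic female, and 0.41 and 0.24 in the transgenic males. Wild-type male 3 was far below the other 6 animals, which lay between 0.24 and 0.60. The genotype difference of 0.28 ± 0.31 (adjusted p = 0.911) was smaller than this spread, and it was 0.0028 without wild-type male 3.

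Of 27 relations to Sqle, 0 passed after adjustment, the smallest adjusted p being 0.214. Fdft1, the squalene synthase that feeds Sqle, had r = 0.79 (exact permutation p = 0.0135, adjusted 0.214; rho = 0.64, p = 0.139, adjusted 0.60) and kept r = 0.72 without wild-type male 3 and the transgenic female, the animals farthest from the median of Sqle. Msmo1, the methylsterol oxidase, read -0.16, 0.50, -0.49 and 0.44 in wild type and 0.36, -0.17 and -0.04 in the transgenic animals. Its r was 0.76 (exact permutation p = 0.0159, adjusted 0.214; rho = 0.61, p = 0.167, adjusted 0.60) and 0.58 without those animals.

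Other relations rested on fewer animals. Srebf2 had the highest r, 0.84 (exact permutation p = 0.0972, adjusted 0.405), but rho was 0.18 (p = 0.713, adjusted 0.875), and r was -0.35 without the same animals, so it rested on them. Hmgcs1 went from r = 0.79 (exact permutation p = 0.0514, adjusted 0.299; rho = 0.75, p = 0.0663, adjusted 0.358) to 0.48, and Dhcr7 from 0.75 (exact permutation p = 0.0554, adjusted 0.299; rho = 0.32, p = 0.498, adjusted 0.707) to 0.21. After genotype and sex were taken out, 8 genes had r above 0.8 with Sqle, against 1 before. Taking out these terms leaves fewer degrees of freedom, where a high r arises more easily. No share over all named genes was computed in these residuals, so the rise cannot be read as closer variation with Sqle.

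**Figure D4:**
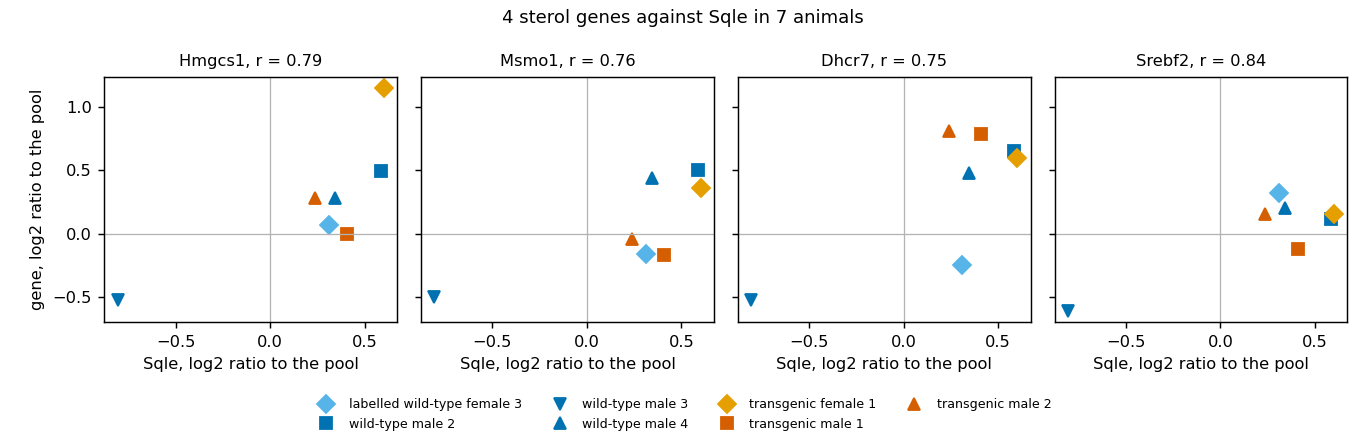
Log2 ratios to the pool of Hmgcs1, Msmo1, Dhcr7 and Srebf2 (y axes) against that of Sqle (x axes), with 1 point for each of the 7 animals. Wild-type male 3, at -0.81 for Sqle, lies alone at the lower left in every panel, and the other 6 animals lie between 0.24 and 0.60 on the Sqle axis.

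Between the sexes, 0 of 28 members were called, beside 0.351% of all features (78), and 2 members had an unadjusted p under 0.05, beside 9.23% of features. These were Npc1l1, higher in the females by 0.54 ± 0.18 (adjusted p = 0.395), and Pmvk, higher by 0.36 ± 0.13 (adjusted p = 0.439). Of the females, only the array labelled wild-type was high for Npc1l1, at 0.91, and the transgenic female read 0.05. For Cyp51, the lanosterol demethylase, the values were -0.45, 0.53, -0.23 and 0.28 in wild type and -0.17, 0.16 and -0.05 in the transgenic animals, with the 2 females among the lowest 3. Its sex difference was -0.45 ± 0.21 (adjusted p = 0.595). Npc2 read 0.50, -0.20, -0.43 and 0.10 against -0.06, -0.04 and -0.22, highest on the array labelled wild-type female. The sex differences of Npc2 and Abcg1 were 0.39 ± 0.19 and 0.47 ± 0.26 (adjusted p = 0.617 and 0.670).

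The test of whether the genotype difference itself differed between the sexes called 0 of 28 members, beside 0.072% of features. There were 3 members at an unadjusted p under 0.05, beside 8.42% of features: Npc1l1 at -0.81 ± 0.21 (adjusted p = 0.381), Abcg1 at -1.15 ± 0.32 (adjusted p = 0.405) and Sc5d at 0.95 ± 0.39 (adjusted p = 0.589), where a positive value is a larger difference in females. In this term 16 of 18 synthesis genes were positive (median 0.24), against 52.4% of all features, and all 5 uptake genes and both efflux genes were negative. The term holds 1 female of each genotype, and the array labelled wild-type female enters every one of these values. From that array to the transgenic female, Sc5d differed by 1.27, Hmgcs1 by 1.08 and Ebp by 1.06, while Npc1l1 differed by -0.87 and Scarb1 by -0.73.

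Other genes of the pathway were listed beside the members. Of 38 genes listed, 29 were measured, and the rest were not analysed here. Between genotypes 0 of the 29 were called, 13 differences were above 0, and the median was -0.03. Cd36, a fatty acid and lipoprotein scavenger receptor that is higher in female liver, had the largest difference, 1.60 ± 0.22 (adjusted p = 0.471). It read 1.18 under the label wild-type female, -0.86, -1.33 and -0.41 in the wild-type males, 2.77 in the transgenic female, and 0.488 and 0.996 in the transgenic males. Within each sex the transgenic animals were higher, and the sex difference of 2.04 ± 0.25 was called (adjusted p = 0.0221).

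Lipa, the lysosomal lipase that frees cholesterol from its esters, read -0.14, 0.18, 0.23 and -0.21 in wild type and -0.30, -0.39 and -0.30 in the transgenic animals, with no overlap. Of all features, 2.84% lay below every wild-type animal in this way. The difference of Lipa was -0.34 ± 0.13 (adjusted p = 0.720). Abcg8, part of the pump that exports sterol into bile, read -0.29, 0.23, -0.09 and 0.20 against -0.55, -0.26 and -0.14, a difference of -0.30 ± 0.11 with overlap (adjusted p = 0.718). Osbp, an oxysterol-binding transfer protein, read 0.10, 0.24, -0.34 and 0.44 against -0.30, -0.32 and -0.20, and wild-type male 3 was lower than all transgenic animals. Its difference was -0.38 ± 0.18 (adjusted p = 0.738).

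Cyb5b, a cytochrome listed with the other synthesis genes, read -0.62, 0.40, -0.16 and 0.34 in wild type and 0.31, 0.43 and 0.39 in the transgenic animals. Cyb5r3, a reductase on the same list, read -0.41, 0.46, 0.04 and 0.07 against 0.12, 0.74 and 0.22. In both, wild-type male 2 lay among the transgenic animals and the array labelled wild-type female was lowest, as for Sc5d. The differences were 0.42 ± 0.19 and 0.36 ± 0.16 (adjusted p = 0.725 and 0.728), and 0.21 ± 0.18 and 0.29 ± 0.20 in the males alone (adjusted p = 0.965 and 0.940).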

How the data were processed

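Per the labels' protocols, total RNA came from spin columns with a DNase step and was amplified with aminoallyl labelling, with dyes swapped. As deposited, each probe has 1 log10 ratio per array, limited at -2 and 2. Background correction, normalization, and how swaps were combined are not given in the sources used here. No intensities were used here, so signal over background is unknown and the number of arrays limits precision. Direction was read from Kdm5d, and the scale from the limits. How columns were centred stays unknown (medians -0.01 to 0.03).

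Ratios were multiplied by 3.32 to give log2. Of 23574 probes, 17824 had 1 symbol, 50 several and 5700 none in the platform annotation. Probes of 1 gene were averaged, and the rest kept singly. Differences were fitted with limma 3.58.1 in R 4.3.3 (lmFit, eBayes; genotype and sex, 7 arrays), adjusted by Benjamini-Hochberg over 22218 features and called at 0.05. The fit was tested on simulated data. Intervals are 95%. Correlations used all 5040 pairings. Values in every animal are given for the 12 members with the smallest genotype p, the 5 with the smallest sex p, Sqle, each arm's extremes, the 6 other pathway genes with the smallest p, and Insig1, Srebf2, Msmo1 and single macrophage markers, chosen after their values were seen. Members and lists were chosen with earlier results of these data known. Alternatives were centring, quantile normalization, a 1-term model, robust eBayes, named genes alone, single probes, males alone and leaving out each animal. The animals are separate mice.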

Additional observations from a re-analysis of the deposited data

Results flagged for a closer look

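In 3 of the tests for a single far animal, run on the 28 genes within the wild-type animals and within the males, 1 animal stood apart from the rest. Sqle in wild-type male 3 read -0.81, and its gap to the next male was 0.75 of the whole range of the males. Dhcr7 in the same animal read -0.52, again with a gap of 0.75 of the range. Fdps in wild-type male 2 read 0.20 against -0.08 to -0.13 in the other wild-type animals, a gap of 0.85 of the range, and the probes of this gene disagreed. Chance alone flags about 1 in 20 groups.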

How the results depend on the processing

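The count of members called between genotypes was 0 under every alternative run, and their median difference ran from -0.08 (without wild-type male 3) to 0.10 (without wild-type male 2). Features called between genotypes went from 0 to 7 in the males alone and to between 0 and 7 when each animal was left out. Leaving out either female gives the same genotype estimates as the males alone, because the sex term then absorbs the lone female. Features called between sexes went from 78 to 47 after quantile normalization and to between 36 and 254 when each animal was left out, and members called between sexes from 0 to between 0 and 1, the 1 without the transgenic female. The number of genes with r above 0.8 to Sqle went from 1 to 0 without the 2 animals farthest from its median and to 8 in residuals after genotype and sex. In those residuals the median pair correlation was 0.61 for the synthesis arms and 0.71 for the sterol arm. Residuals have fewer degrees of freedom, and the same values were not computed for all named genes.

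For 21 named genes, 280 alternative values kept their sign and 14 turned, but these values are not separate checks. Robust eBayes and named genes alone repeat the main estimate, as do single probes for genes with 1 probe. The males alone and leaving out either female share the same estimate. The counts therefore do not measure how stable the signs are. When each animal was left out, the Srebf2 difference ran from -0.15 (without wild-type male 3, and -0.07 without transgenic male 2) to 0.12. Npc1 ran from -0.10 to 0.019 (without wild-type male 2). Cyp51 ran from -0.14 to 0.11 (without wild-type male 2, with 0.03 without wild-type male 4 and 0.09 without transgenic male 2). Npc2 ran from -0.25 to 0.05 (without either female, as in the males alone). Insig1 ran from -0.19 (without either female, as in the males alone, and -0.02 without wild-type male 3 or transgenic male 2) to 0.31. Their causes were not tested. No paired analysis was possible because the labels name no pairs of animals. With 3 transgenic and 4 wild-type animals, signal over background unknown and 1 female of each genotype, small differences were not detectable here. Larger ones were missed by the test too: Zfp90 at 0.48 ± 0.15 and Cd36 at 1.60 ± 0.22 were not called (limma adjusted p = 0.678 and 0.471).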
